A study of Homo sapiens with 6 samples.

Results

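Transcripts of 10 kinesin motors that work in mitosis and cytokinesis, KIF11, KIF14, KIF15, KIF18A, KIF20A, KIF20B, KIF23, KIF2C, KIF4A and KIFC1, were compared between cybrids that differ in their mitochondria. The members were taken by gene symbol, as every probe set that the platform's annotation assigns to a single one of these genes. This gave 15 probe sets of the 54675 on the array and 10 genes of the 19775 measured. Expression was measured on 6 Affymetrix arrays, 3 of 10A/143B cybrids and 3 of 468/143B cybrids. A cybrid is made by fusing an enucleated mitochondrial donor with a cell that has lost its mitochondrial DNA. Here the nuclear partner of both groups was 143B p0, an osteosarcoma line without mitochondrial DNA, and the donor was MCF10A, a non-tumorigenic breast epithelial line, for 10A/143B and MDA-MB-468, a metastatic breast cancer line, for 468/143B. Donors were enucleated in actinomycin-D, fusion was by polyethylene glycol, and both groups went through the same selection in bromodeoxyuridine without uridine. A further cybrid with 143B mitochondria, described in the labels, was not analysed here. The labels do not say how many clones stand behind each cybrid or whether the 3 extractions of RNA per group came from separate cultures, so the p-values measure only the spread between these arrays.

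Kinesins are motors that walk along microtubules or take them apart, using ATP. In mitosis they push the spindle poles apart, move chromosomes to the metaphase plate, limit the length of microtubules and build the midzone and midbody where the daughter cells separate. Transcripts of many of these motors accumulate late in the cell cycle and are low in resting cells. In a bulk sample, more cells in G2 and mitosis and more transcript per such cell cannot be told apart.

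Replicates 2 and 3 of each group were nearly alike, with differences of SD 0.08 in 10A/143B and 0.09 in 468/143B cybrids on the log2 scale among 9220 bright probe sets, whereas differences from replicate 1 had SDs between 0.27 and 0.29. A gene was therefore said to have risen or fallen only where it passed an adjusted p of 0.05 both on 6 arrays and with replicates 2 and 3 averaged to 1 sample. On 6 arrays 7042 genes passed, 35.6% of those tested, with 19.9% higher and 15.7% lower in 10A/143B, and 22.7% passed both fits. Of the calls on 6 arrays 55.8% were higher in 10A/143B, but 45.7% after quantile normalization, which moved the median difference of all genes from -0.02 to -0.07, and 46.0% after median centring, which moved it to -0.12. Array medians were 21.7 to 24.4 intensity units for 10A/143B and 20.4 to 21.4 for 468/143B cybrids. The 3′ probe set of ACTB, which reports on RNA degradation when set over the 5′ one, was 1.59 to 1.92 times as bright in 10A/143B and 1.18 to 1.67 times in 468/143B cybrids. For GAPDH this ratio lay lower on most 10A/143B arrays, at 1.01, 0.973 and 0.933, against 0.966, 1.06 and 1.07 in 468/143B cybrids. The part of RNA quality in the results was not tested. Of 5 markers of 143B osteosarcoma cells, 0 were higher and 2 lower in 10A/143B on 6 arrays, and 0 and 1 in both fits. VIM was bright in both groups, with mean intensities of 8687 in 10A/143B and 8418 in 468/143B cybrids. SPARC fell (means 1483 and 2354, log2 difference -0.66, adjusted p = 4.96e-05), RUNX2 was lower on 6 arrays only (-0.23, adjusted p = 0.0271), and COL1A1 and ALPL did not pass (COL1A1 adjusted p = 0.149, and 0.0479 with the replicate block). COL1A1 lay at 0.58 on its brightest probe set, but another passed as lower (-1.53, adjusted p = 0.0177 over all probe sets). The rest gave -0.42, -0.26 and -0.22 without passing, so COL1A1 has no settled direction. Of 3 measured MCF10A markers 0 passed. KRT5 and KRT14 were dim, with KRT5 at the lowest value of the array on all 3 arrays of 10A/143B, whereas LAMB3 had means of 778 in 10A/143B and 615 in 468/143B cybrids (0.32, adjusted p = 0.0881, and 0.00594 with the replicate block). The part of these markers in the results was not tested.

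Most of the mitotic kinesins were higher in 10A/143B cybrids. KIF11, KIF14, KIF15, KIF18A, KIF20B and KIF23 rose between 1.58-fold and 3.19-fold, KIFC1 fell 1.66-fold, and KIF20A, KIF2C and KIF4A did not pass on the probe set that stands for the gene. This made 7 of 10 members called in either direction, the same 7 in both fits, beside 35.6% of all genes on 6 arrays and 22.7% in the averaged fit. The 6 that rose stand beside 13.8% of all genes higher in both fits, and the 1 that fell beside 8.89% lower in both (8.90% lower in the averaged fit alone). On 6 arrays 5 members passed and were at least 2-fold higher, as were 7.19% of all genes tested. The median log2 difference of the 10 members was 0.90, with that of all genes at -0.02. In 8 members the arrays of one group all lay above those of the other, as in 45.8% of all genes. All 10 members had the same sign in each of the 3 same-numbered pairs of arrays, but replicates 2 and 3 are near duplicates. The share of all genes with the same sign in each pair was not counted, so that count has no background here.

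**Figure D1:**
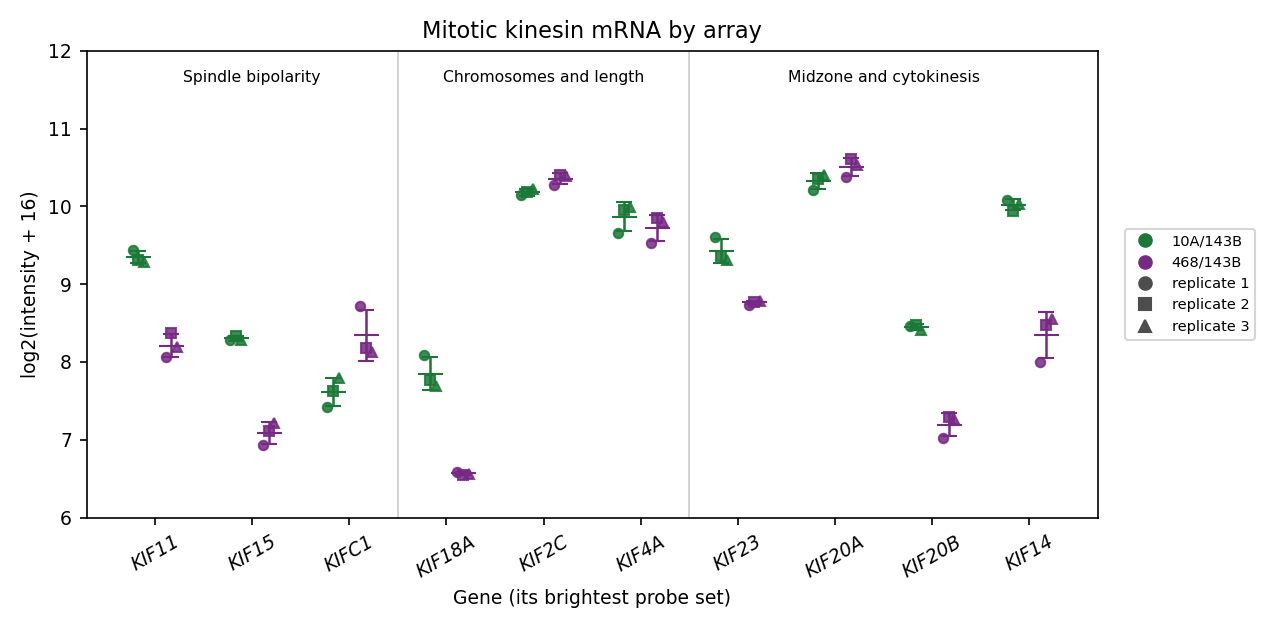
Level of each mitotic kinesin on each array, as log2(intensity + 16) of its brightest probe set, with 1 point per array (green 10A/143B, purple 468/143B, a shape for each replicate number). Bars give the mean ± SD over 3 arrays. KIF14 lies at 10.02 ± 0.07 in 10A/143B and 8.34 ± 0.30 in 468/143B cybrids, whereas the arrays of KIF20A and KIF4A overlap. Levels of different genes come from different probes and cannot be set against each other.

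Among the motors that keep the spindle bipolar, the plus-end-directed pair rose and the minus-end-directed motor fell. KIF11, also called Eg5, slides antiparallel microtubules apart, and its inhibition leaves cells with monopolar spindles. Its intensities were 680.3, 622 and 609 in replicates 1, 2 and 3 of 10A/143B, against 252, 315 and 276 in those of 468/143B cybrids. Every 10A/143B array stood above every 468/143B array, and KIF11 rose 2.20-fold (log2 difference 1.14 ± 0.09, SE, n = 3 arrays per group, adjusted p = 3.44e-05, and 9.11e-04 averaged). KIF15, which can hold the poles apart together with KIF11, had intensities of 296, 307 and 296 in 10A/143B, against 106, 123 and 133 in 468/143B cybrids. The 10A/143B arrays of KIF15 were close to each other and all above the others, and the gene rose 2.32-fold (1.21 ± 0.11, adjusted p = 4.37e-05, and 0.00192 averaged). KIFC1, a minus-end-directed motor that bundles microtubules toward the poles and gathers extra centrosomes into a pair of poles, had intensities of 155, 182 and 205 in 10A/143B, against 405, 274 and 263 in 468/143B cybrids. The groups did not overlap, but the replicate 1 arrays lay farther apart than the others, with log2 differences of -1.29, -0.55 and -0.34 in the same-numbered pairs. KIFC1 fell 1.66-fold (-0.73 ± 0.17, adjusted p = 0.00944, and 0.0232 averaged).

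The motors that act on chromosomes and on microtubule length went different ways. KIF18A, which walks to microtubule plus ends at the kinetochore and damps the oscillation of chromosomes, had intensities of 256, 202 and 190.0 in 10A/143B, against 80.4, 77.7 and 78.2 in 468/143B cybrids. The 468/143B arrays were almost equal and all lay below those of 10A/143B, and KIF18A rose 2.43-fold (1.28 ± 0.14, adjusted p = 1.27e-04, and 0.00341 averaged). KIF2C, also called MCAK, does not walk but takes microtubules apart at their ends and helps to correct wrong attachments of chromosomes. On its brighter probe set it had intensities of 1113, 1144 and 1184 in 10A/143B, against 1226, 1342 and 1323 in 468/143B cybrids. These arrays did not overlap, but the log2 difference of -0.17 ± 0.06 did not pass (adjusted p = 0.0550, and 0.330 averaged, with a 95% interval of -0.40 to 0.07 in the averaged fit). The dimmer probe set of KIF2C was lower in both fits over all probe sets, with intensities of 648, 564 and 584 in 10A/143B, against 904, 820.3 and 849 in 468/143B cybrids (-0.51 ± 0.08, adjusted p = 0.00146, and 0.0368 averaged). KIF2C thus went the same way on both probe sets, and its call depended on the probe set. KIF4A binds chromatin and, with the bundling protein PRC1, limits the length of the spindle midzone. Its intensities were 792, 976 and 1003 in 10A/143B, against 724, 904 and 873 in 468/143B cybrids. The groups overlapped and KIF4A did not pass (0.14 ± 0.11, adjusted p = 0.388, and 0.595 averaged, 95% interval -0.11 to 0.40 on 6 arrays). Its retrocopy KIF4B is near-identical in sequence, and the probes may not tell them apart.

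Of the other 4 members, which like KIF4A work at the midzone or in cytokinesis, KIF14, KIF20B and KIF23 rose and KIF20A did not pass. KIF14, which binds PRC1 and citron kinase at the midbody and is needed for the last steps of cytokinesis, rose more than any other member when each gene is read on its brightest probe set. Its intensities were 1067, 969 and 1031 in 10A/143B, against 241, 340.1 and 359.5 in 468/143B cybrids. The lowest 10A/143B array was far above the highest 468/143B array, and the difference was 3.19-fold (1.68 ± 0.14, adjusted p = 2.98e-05, and 5.46e-04 averaged). The other probe set of KIF14, with means of 419 and 133 in 10A/143B and 468/143B cybrids, gave 1.55 ± 0.11 (adjusted p = 2.40e-05 over all probe sets, and 0.00150 averaged). KIF20B, also called MPHOSPH1, takes part in late cytokinesis. It had intensities of 335, 340.1 and 324 in 10A/143B, against 114, 141 and 138 in 468/143B cybrids. The arrays did not overlap and KIF20B rose 2.38-fold (1.25 ± 0.11, adjusted p = 3.60e-05, and 0.00151 averaged). Its other 2 probe sets were dim, with intensities between 2.35 and 25.3 on all arrays, and did not pass (-0.37 ± 0.20 and 0.25 ± 0.12, adjusted p = 0.240 and 0.158). The mean over its 3 probe sets gave KIF20B a log2 difference of 0.38 (adjusted p = 0.0481).

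KIF23, also called MKLP1, forms the centralspindlin complex with RACGAP1 and marks the place of the cleavage furrow. Its brighter probe set had intensities of 765, 639 and 622 in 10A/143B, against 410.1, 422 and 425 in 468/143B cybrids. All 10A/143B arrays were higher, with replicate 1 the highest, and KIF23 rose 1.58-fold (0.66 ± 0.09, adjusted p = 4.38e-04, and 0.00641 averaged). Its dimmer probe set showed a larger difference, with intensities of 317, 215 and 224 in 10A/143B, against 40.8, 71.5 and 62.2 in 468/143B cybrids (1.86 ± 0.20, adjusted p = 1.97e-04, and 0.00290 averaged). The direction of KIF23 was thus the same on both probe sets, and its size ranged from 1.58-fold to 3.63-fold. KIF20A, also called MKLP2, carries the chromosomal passenger complex with the kinase AURKB to the midzone. It had intensities of 1168, 1287 and 1342 in 10A/143B, against 1314, 1552 and 1458 in 468/143B cybrids. These arrays overlapped, and the log2 difference of -0.18 ± 0.08 did not pass (adjusted p = 0.117, and 0.348 averaged, 95% interval -0.45 to 0.09 in the averaged fit). With the replicate number as a block KIF20A and KIF2C passed as lower over all genes (adjusted p = 0.0351 and 0.0367). That fit called 39.2% of all genes, 21.3% higher and 17.8% lower in 10A/143B. Adjusted over all probe sets, the same probe sets did not pass with the block (adjusted p = 0.0533 and 0.0573). After quantile normalization KIF20A and KIF2C also passed as lower over all genes (adjusted p = 0.0384 and 0.0217). That fit called 37.6% of all genes, 17.2% higher and 20.4% lower.

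**Figure D2:**
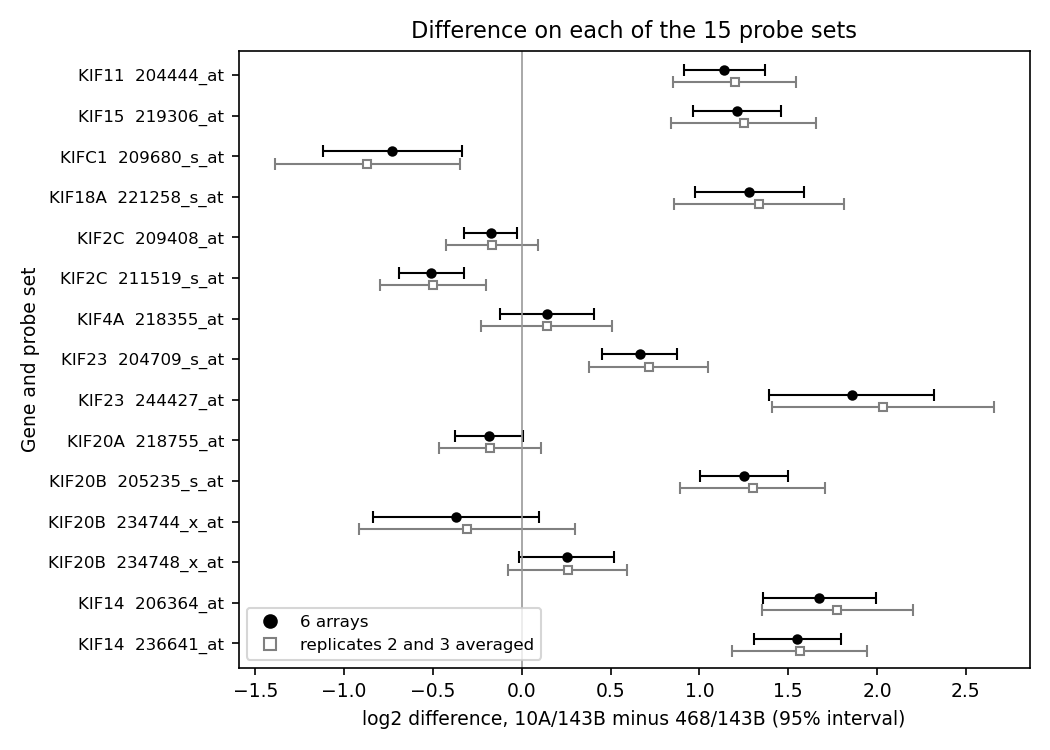
Log2 difference, 10A/143B minus 468/143B, on each of the 15 probe sets with its 95% interval, on 6 arrays (black) and with replicates 2 and 3 averaged (open squares). Of the 15 probe sets 8 were called higher and 2 lower in both fits, and KIF20B's dim probe sets, at -0.37 and 0.25, did not pass.

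Over all 15 probe sets, 8 were higher and 2 lower on 6 arrays, and as many in the averaged fit. Among the 54613 probe sets tested 28.0% passed on 6 arrays, 17.4% higher and 10.6% lower in 10A/143B, and 15.8% in the averaged fit, 10.7% higher and 5.08% lower. No member had probe sets that passed in opposite directions.

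Promoters were searched for elements known from genes of the late cell cycle. The cell cycle genes homology region, or CHR, is read by LIN54 of the MuvB complex, which works with MYBL2 and FOXM1 in G2 and with repressive partners in resting cells. The CCAAT box is bound by NF-Y. The letters searched were TTTGAA and TTCGAA for the CHR and CCAAT for the box, on both strands (TTCAAA and ATTGG on the strand shown), in the 300 bases from 250 before to 50 after the start of each gene in RefSeq's GRCh38.p14 promoters, and no match overlapped another. All 10 members had a promoter there. CHR letters were found in 8 of the 10, all but KIF20A and KIF2C, and in 16.4% of all 35116 promoters. A CCAAT box was found in 8 of the 10, all but KIF15 and KIF2C, and in 34.6% of all promoters. Both stood in 7 members and in 6.38% of all promoters. Among the 21490 promoters of measured genes the shares were 13.6% with CHR letters, 34.5% with a CCAAT box and 5.40% with both. The 6 members that rose each held CHR letters, but so did KIFC1, which fell, and KIF4A, which did not pass. A match is a run of letters only, and no match says that these letters are not in this window.

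Windows from 100 bases before to 50 after the start are shown for members that rose (KIF14, KIF18A, KIF20B and KIF23), for a member that held the same letters and did not pass (KIF4A), for the member that fell (KIFC1), and for a member with CCAAT boxes but no CHR letters (KIF20A). Capitals mark the CHR letters and the CCAAT boxes.
KIF14: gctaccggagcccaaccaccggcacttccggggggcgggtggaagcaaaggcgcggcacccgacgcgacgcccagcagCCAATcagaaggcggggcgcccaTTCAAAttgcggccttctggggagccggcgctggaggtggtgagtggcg
KIF18A: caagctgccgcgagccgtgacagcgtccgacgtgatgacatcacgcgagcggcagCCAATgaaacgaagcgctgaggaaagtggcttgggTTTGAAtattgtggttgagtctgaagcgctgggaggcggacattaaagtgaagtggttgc
KIF20B: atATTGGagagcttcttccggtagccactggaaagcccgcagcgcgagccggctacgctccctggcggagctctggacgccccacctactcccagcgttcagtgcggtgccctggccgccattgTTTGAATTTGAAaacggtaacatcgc
KIF23: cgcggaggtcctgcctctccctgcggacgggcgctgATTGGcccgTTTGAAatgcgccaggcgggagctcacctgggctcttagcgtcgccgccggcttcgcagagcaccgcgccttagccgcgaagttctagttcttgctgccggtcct
KIF4A: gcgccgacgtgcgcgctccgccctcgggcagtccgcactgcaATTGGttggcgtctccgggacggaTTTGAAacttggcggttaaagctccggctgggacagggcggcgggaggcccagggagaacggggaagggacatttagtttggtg
KIFC1: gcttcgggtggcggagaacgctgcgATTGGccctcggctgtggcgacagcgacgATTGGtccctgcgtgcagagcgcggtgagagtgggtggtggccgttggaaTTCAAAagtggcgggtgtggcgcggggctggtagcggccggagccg
KIF20A: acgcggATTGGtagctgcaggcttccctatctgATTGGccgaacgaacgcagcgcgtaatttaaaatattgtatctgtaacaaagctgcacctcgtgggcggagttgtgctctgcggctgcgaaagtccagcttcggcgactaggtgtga
The windows lie at chr1:200620702-200620851 and chr11:28108107-28108256 on the minus strand, and at chr10:89701490-89701639, chr15:69414249-69414398, chrX:70290004-70290153, chr6:33391723-33391872 and chr5:138179012-138179161 on the plus strand. KIF20B holds 2 CHR runs side by side, at bases 25 and 31 counted from the start site. In KIF23 the CHR letters begin 55 bases before the start and the CCAAT box 64 bases before it. In KIF18A they begin 10 and 45 bases before the start, and in KIF4A 34 and 58 bases before it. In KIFC1 the CHR letters begin at base 5 after the start, with CCAAT boxes 46 and 75 bases before it.

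Gene length and position were set beside the members. The trend of the log2 difference on gene length, fitted over all genes, stood between -0.10 (KIF20A) and 0.27 (KIF4A) at the members' lengths. The 6 members that rose are longer than 58.7% (KIF23) to 84.4% (KIF15) of the measured genes. KIF20A, KIFC1 and KIF2C are longer than 24.4%, 42.3% and 53.2% of them. KIF4A is the longest member, longer than 87.7%, and did not pass. With the trend on gene length removed, the 6 members remained higher, by 0.61 (KIF23) to 1.48 (KIF14) on the log2 scale, with adjusted p between 6.96e-05 and 8.16e-04. KIFC1 remained lower (-0.69, adjusted p = 0.0124), KIF2C passed as lower (-0.20, adjusted p = 0.0335), and KIF4A changed sign without passing (-0.12, adjusted p = 0.453).

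The median difference of the 20 nearest measured genes, 10 on each side, was 0.14 for KIF11, 0.06 for KIF14, 0.0020 for KIF15, 0.03 for KIF18A, -0.03 for KIF20B and 0.02 for KIF23. Single neighbours passed in both directions: 7 higher and 1 lower around KIF11, 6 and 3 around KIF14, 4 and 3 around each of KIF15 and KIF18A, 4 and 5 around KIF20B, and 8 and 2 around KIF23. A median over 20 genes lies nearer to 0 than most single genes do, so it describes the region and is not set against a member's own difference. KIFC1 lies on chromosome 6, where 9 of its 20 neighbours passed as lower and 0 as higher, with a median of -0.27. Around KIF4A on chromosome X the median was -0.24, with 5 neighbours lower and 2 higher.

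**Figure D3:**
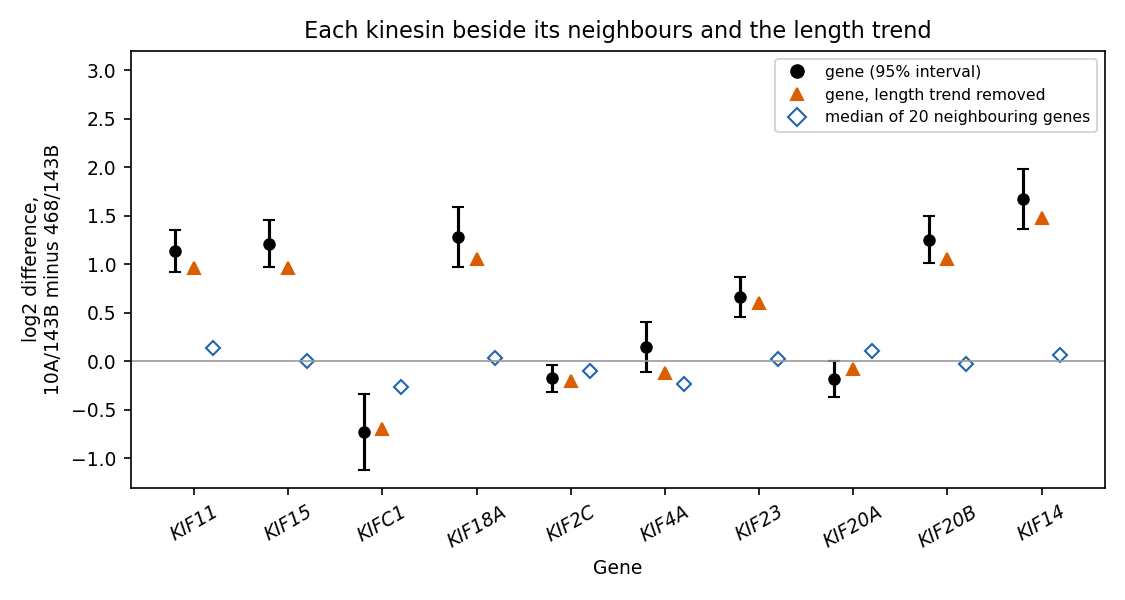
Log2 difference (10A/143B minus 468/143B) of each mitotic kinesin with its 95% interval (black), after the gene length trend was removed (orange), and the median of its 20 neighbouring genes (blue). The neighbours' medians run from -0.27 beside KIFC1 to 0.14 beside KIF11. A median of 20 genes lies nearer to 0 than most single genes.

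The mitotic kinesins outside the 10 also went both ways. Of 6 measured, CENPE, KIF18B and KIF2A rose, KIF22 fell, and KIF2B and KIF24 did not pass (median 0.50). Among all genes 13.8% were higher and 8.89% lower in both fits. CENPE carries chromosomes toward the plate and had intensities of 212, 231 and 226 in 10A/143B, against 29.0, 47.2 and 27.1 in 468/143B cybrids, with no overlap (2.27 ± 0.18, adjusted p = 2.49e-05, and 6.95e-04 averaged). It lies on chromosome 4, and the median of its neighbours was 0.40. KIF22, a motor on chromosome arms, had intensities of 315, 347 and 315 in 10A/143B, against 734, 724 and 744 in 468/143B cybrids, with no overlap (-1.14 ± 0.07, adjusted p = 8.99e-06, and 6.10e-04 averaged). The median of its neighbours on chromosome 16 was -0.42. KIF18B and KIF2A, both of which shorten microtubules, rose by 0.72 ± 0.11 and 0.57 ± 0.08.

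Partners of the motors included genes that rose, genes that fell and genes that did not pass. Of 23 genes that bind, load or phosphorylate these motors or work beside them, 12 were higher and 4 lower on 6 arrays, and 7 and 1 in both fits (median 0.26), beside 19.9% and 15.7% of all genes on 6 arrays. In both fits those shares of all genes were 13.8% and 8.89%. ECT2, the exchange factor that centralspindlin recruits to start the furrow, had intensities of 982, 1024 and 1010 in 10A/143B, against 383, 326 and 377 in 468/143B cybrids, and rose 2.71-fold (1.44 ± 0.08, adjusted p = 5.27e-06, and 3.32e-04 averaged). RACGAP1, which forms centralspindlin with KIF23, had mean intensities of 1796 in 10A/143B and 1730 in 468/143B cybrids and did not pass (0.05 ± 0.05, adjusted p = 0.509). PRC1, the partner of KIF4A and KIF14, did not pass either (0.13 ± 0.11, adjusted p = 0.466), nor did TPX2, which brings KIF11 and KIF15 to the spindle (-0.16 ± 0.07, adjusted p = 0.108, and 0.0467 with the replicate block). Citron kinase was not analysed here. KIFBP, a protein that binds KIF15 and KIF18A, passed on 6 arrays only (0.31 ± 0.09, adjusted p = 0.0198, and 0.104 averaged).

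Mitotic kinases that act on the motors differed among themselves. PLK1, which phosphorylates KIF20A for its work at the midzone, fell 1.85-fold, with intensities of 326, 347 and 402 in 10A/143B, against 648, 709 and 671 in 468/143B cybrids (-0.89 ± 0.09, adjusted p = 8.97e-05, and 0.00192 averaged). CDK1, named here after its values were seen, rose 1.42-fold (0.51 ± 0.05, adjusted p = 8.76e-05, and 0.00715 averaged). Its dimmer probe sets gave 0.41, 0.33 and 0.97 without passing. AURKA was higher on 6 arrays only (0.26 ± 0.07, adjusted p = 0.0140, and 0.0808 averaged), and AURKB, which acts on KIF2C, was lower on 6 arrays only (-0.29 ± 0.05, adjusted p = 0.00247, and 0.0590 averaged). MKI67, the proliferation marker, rose 1.79-fold, with mean intensities of 944.5 in 10A/143B and 521 in 468/143B cybrids (0.84 ± 0.08, adjusted p = 9.46e-05, and 0.00196 averaged). ANLN, a scaffold of the contractile ring, rose by 0.66 ± 0.06.

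Among 16 genes of the activating and repressing factors at G2 and mitosis promoters (FOXM1, MYBL2, MuvB subunits, pocket proteins, E2F and DP factors and NF-Y), 4 were higher and 5 lower on 6 arrays, and 2 and 3 in both fits (median -0.11). For all genes the shares were 19.9% higher and 15.7% lower on 6 arrays, and 13.8% and 8.89% in both fits. FOXM1 did not pass (0.16 ± 0.08, adjusted p = 0.163, and 0.508 averaged). MYBL2 was lower (-0.47 ± 0.10, adjusted p = 0.00552, and 0.0474 averaged), and LIN54, which reads the CHR, was higher on 6 arrays only (0.66 ± 0.18, adjusted p = 0.0222, and 0.202 averaged). LIN9, a further MuvB subunit, rose 2.53-fold (1.34 ± 0.17, adjusted p = 3.12e-04), and LIN37 fell 1.54-fold (-0.63 ± 0.10, adjusted p = 0.00152). A dimmer probe set of LIN9 also passed as higher on 6 arrays (0.73, adjusted p = 0.0232 over all probe sets). The other gave 0.07 at a mean intensity of 1.49. For LIN37 a dimmer probe set gave 0.12 without passing. RBL1, the pocket protein p107, rose by 1.51 ± 0.22 on its brightest probe set. Of its other 3, one passed as higher on 6 arrays (0.71, adjusted p = 0.0192 over all probe sets), whereas the rest gave -0.0030 and -0.16 without passing. TFDP2 was lower on its brightest probe set (-0.86 ± 0.09), but 2 of its other probe sets passed as higher, so it has no settled direction.

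S phase genes, which are expressed earlier in the cycle than the motors, showed 2 higher and 7 lower of 18 on 6 arrays, and 2 and 4 in both fits (median -0.05). The shares of all genes were 19.9% higher and 15.7% lower on 6 arrays, and 13.8% and 8.89% in both fits. CCNE2 (1.07 ± 0.15) and FEN1 (0.88 ± 0.16) rose, whereas TK1 (-0.89 ± 0.08) and MCM5 (-0.68 ± 0.07) fell. The tubulin list holds alpha and beta tubulins, which form the track of the motors, and 2 gamma tubulins. Of its 12 genes, 0 were higher and 7 lower on 6 arrays, where 15.7% of all genes were lower. In both fits 0 were higher and 3 lower, beside 8.89% of all genes lower, and the list's median was -0.24. Those that fell were TUBG2 (-1.22 ± 0.15), TUBB2A (-0.87 ± 0.07) and TUBG1 (-0.47 ± 0.07), 2 of them gamma tubulins of the spindle poles. TUBG1 and TUBG2 lie in 1 neighbourhood on chromosome 17, where the median of the 20 neighbours was -0.35 and 10 of them passed as lower. Whether the motors differed from these lists was not tested.

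**Figure D4:**
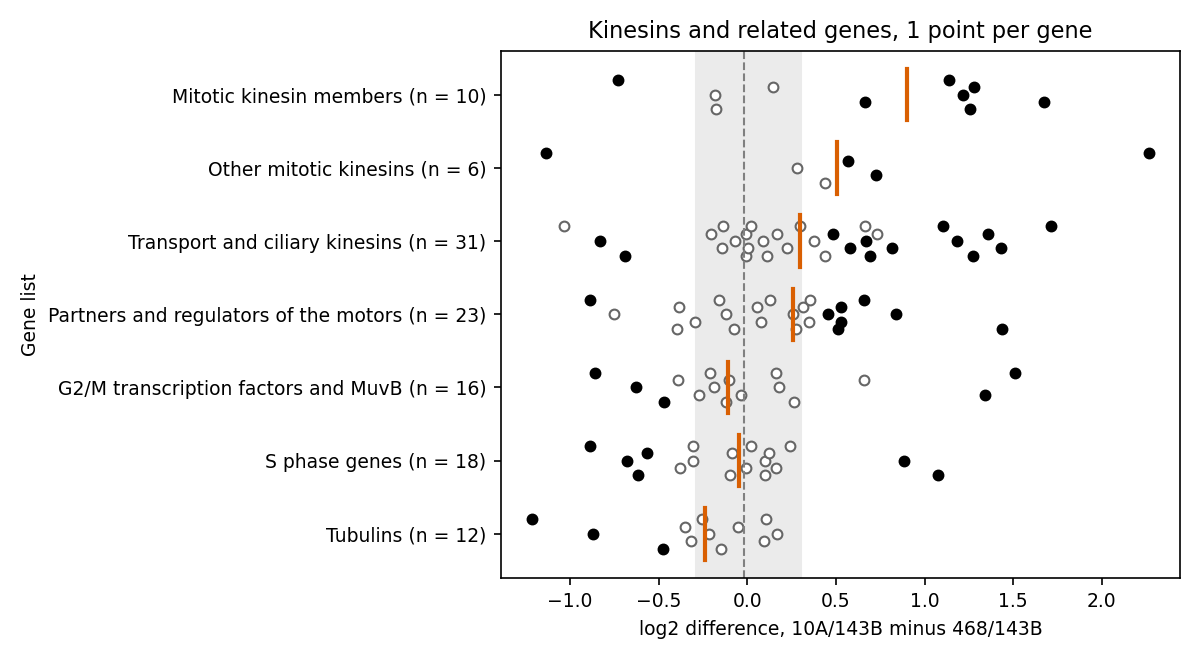
Log2 difference (10A/143B minus 468/143B) of the 10 mitotic kinesins and of 6 related gene lists, 1 point per gene, filled where the gene passed both fits, with list medians as orange lines. The grey band spans the quartiles of all genes (-0.29 to 0.30) around their median (dashed), and the members' median is 0.90.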

How the data were processed

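The labels describe 2 groups of 3 arrays, named and numbered here by source name, which gives the cybrid. The titles name only the donor lines and number the same arrays differently. The authors deposited 1 linear intensity for each probe set on each array. How they were summarised and scaled is not given in the sources used here. Log2 of 100% of deposited intensities was a whole multiple of 0.01 (tolerance 1e-05), and no detection calls were used, so dim values could not be called background. Precision is limited by the number of arrays.

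Intensities were taken as deposited and set on the scale log2(intensity + 16), a scale that understates changes of dim genes. Of 54675 probe sets, 41091 named 1 gene, with symbols updated through Entrez identifiers (41037 matched) to RefSeq genes of GRCh38.p14. The brightest probe set stood for a gene. The test was limma's (version 3.58.1, R 4.3.3; lmFit and eBayes with a trend on intensity) and Benjamini-Hochberg adjustment at 0.05 over 19775 genes or 54613 probe sets, and every adjusted p is from limma. Differences are 10A/143B minus 468/143B. The script was tested on simulated data.

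The members and lists were chosen with earlier results of these data known. Named are all members with all probe sets, of each other list up to 4 genes with the largest difference among those past both fits and a set of listed regulators whatever their values. Lists were not tested. Deviations of same-numbered arrays correlated across groups (r = 0.27, 0.22 and 0.21), but those of replicates 2 and 3 also crosswise (0.26 and 0.20), so replicate 1 stands apart in both groups. The fits behind the calls have no block. The replicate number as a block was an alternative, given beside a result where it changes the call. Others changed the scaling, offset, level filter, trend, array weights, probe set rule, gene length trend and arrays used.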

Additional observations from a re-analysis of the deposited data

How the results depend on the processing

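With 20 alternatives, KIF11, KIF14, KIF15 and KIF23 kept their direction and call in all 20, and KIF18A, KIF20B and KIFC1 in the 19 that measured them, since without probe sets named _x_at and _s_at these 3 drop out and 4 kinesins are called. KIF20A passed as lower after quantile normalization (-0.24) and median centring (-0.28), with array weights (-0.17), with the replicate block (-0.18) and with replicate 1 as a batch term (-0.18), and ran from -0.25 to -0.13 when single arrays were left out, passing only without 468/143B replicate 1. KIF2C passed as lower after quantile normalization (-0.21) and median centring (-0.27), with the level filter (-0.17), array weights (-0.18), the replicate block (-0.17), the batch term (-0.17), the mean of probe sets (-0.34) and the length trend removed (-0.20, also with the replicate block), and ran from -0.21 to -0.15 with single arrays left out, passing only without 468/143B replicate 1. KIF4A passed as higher with array weights (0.18) and the batch term (0.14), and had the opposite sign with the length trend removed, with and without the replicate block (-0.12). The replicate block changed no other call of a member. Its fit called 9 of the 10 genes and 7750 of all genes. The causes of these changes were not tested. With replicates 2 and 3 averaged 4483 of all genes passed, in a fit on fewer samples. The length trend with the replicate block was chosen after seeing the data.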

Other observations

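Kinesins of transport and cilia, which carry vesicles, organelles and ciliary cargo between divisions, were measured as well. The list also holds kinesin light chains and the adaptor KIFAP3, which are not motors, and the light chain KLC1 is among those higher. Of its 31 genes, 13 were higher and 2 lower on 6 arrays, and 11 and 2 in both fits, with a median log2 difference of 0.30. These counts stand beside 19.9% of all genes higher and 15.7% lower on 6 arrays, and 13.8% and 8.89% in both fits. Of the 3 heavy chains of conventional kinesin, KIF5A did not pass (0.38, adjusted p = 0.213) and the other two rose, KIF5B 2.56-fold (1.36 ± 0.12, adjusted p = 5.49e-05), with mean intensities of 3183 in 10A/143B and 1245 in 468/143B cybrids, and KIF5C 3.28-fold (1.71 ± 0.10, adjusted p = 8.29e-06), with 0.22 and 0.52 on its dimmer probe sets. KIF21A (1.43 ± 0.08) and KIF13A (1.27 ± 0.11) rose too, although another probe set of KIF21A gave -0.09 and 2 of KIF13A gave -0.44 and -0.16. The genes that fell were KIF9 (-0.69 ± 0.08) and the minus-end-directed KIFC3 (-0.83 ± 0.12), chosen after their values were seen. A dim probe set of each lay above 0 without passing, at 0.27 for KIF9 and 0.20 for KIFC3. The remaining probe sets of KIF9 gave -0.61 and -0.50. The median gene of this list is longer than 71.4% of measured genes, and with the gene length trend removed the list's median was 0.18.

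Markers of other cell types differed between the groups. All 3 markers of fibroblast and smooth muscle were lower on 6 arrays, and ACTA2 and MYL9 in both fits, with summed intensities of 356 to 726 in 10A/143B and 1147 to 1399 in 468/143B cybrids. On its brightest probe set TAGLN was lower on 6 arrays only (-0.96, averaged adjusted p = 0.0539). Another, with a mean intensity of 316, showed a larger difference on 6 arrays (-3.68, adjusted p = 8.50e-06 over all probe sets). A dimmer probe set of TAGLN gave -0.60 without passing. Of 6 markers of MDA-MB-468 and epithelium, 0 were higher and 3 lower on 6 arrays, and KRT8 alone in both fits (-1.05, averaged adjusted p = 0.00375), with sums of 6591 to 6947 in 10A/143B and 7354 to 8267 in 468/143B cybrids. KRT18 and KRT19 missed in the averaged fit (adjusted p = 0.0503 and 0.0584). EPCAM (0.43) and EGFR (0.41) lay above 0 on their brightest probe sets without passing. Other probe sets of EGFR passed on 6 arrays in both directions, as higher (1.11) and as lower (-0.60, -1.04 and -0.96), so EGFR has no settled direction. Of 4 blood and endothelial markers, PECAM1 was higher on 6 arrays and 0 in both fits. The part of these markers in the differences of the kinesins was not tested.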
